A study of Mus musculus with 2 samples.

Results

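The 9 genes described here encode Wt1, Upk3b, Lhx9, Emx2, Nr5a1, Osr1, Pax2, Pax8 and Lhx1, which mark or regulate the urogenital ridge and the coelomic epithelium. They were chosen by name from the 31053 genes in the files. Their unique molecular identifiers (UMIs, each standing for 1 captured transcript) were read in 2 libraries of whole aorta-gonads-mesonephros (AGM) regions of mouse embryos at embryonic day 11 (E11), 1 of PDGFRB +/+ (WT) and 1 of PDGFRB -/- (KO) embryos. The mutant line was kept as heterozygotes on a C57BL/6J background, and each library was loaded for 7000 cells from AGMs whose number is not given in the sources used here. Barcodes with at least 2000 UMIs and under 10% mitochondrial UMIs were taken as cells, which left 8253 WT and 8165 KO cells.

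The AGM lies on either side of the dorsal aorta and gives rise to the gonads and the mesonephric kidney. Its surface is the coelomic epithelium, whose cells thicken into the gonadal ridge, and below it the intermediate mesoderm forms the nephrogenic mesenchyme and the epithelial nephric duct. Wt1, Lhx9, Emx2 and Nr5a1 are transcription factors needed for the gonad to form, Upk3b is a membrane protein of mesothelium, and Osr1, Pax2, Pax8 and Lhx1 are transcription factors of the intermediate mesoderm and its kidney derivatives.

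By GENCODE M21 (GRCm38), the 9 protein-coding genes lie on 6 chromosomes. Wt1 spans chr2:105126529-105173616 (+ strand), Upk3b chr5:136038496-136046487 (+), Lhx9 chr1:138825186-138848577 (-), Emx2 chr19:59458372-59465357 (+) and Nr5a1 chr2:38692656-38714542 (-). Osr1 spans chr12:9570116-9581500 (+), Pax2 chr19:44756045-44837871 (+), Pax8 chr2:24420560-24475599 (-) and Lhx1 chr11:84518284-84525535 (-). Genes on the other strand overlap Emx2, Nr5a1, Osr1, Pax2 and Pax8, and since counting by strand is not given in the sources used here, the UMIs of these 5 members may include theirs.

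With 1 library per genotype, no test between genotypes could be made. Cells of a library are not replicates. Levels are given as CPM, the summed UMIs of a gene in a group of cells for every 1000000 UMIs that these cells held. A share is the percentage of cells in which a gene had any UMI. Ranges in parentheses are exact 95% intervals, Poisson for levels and binomial for shares, and they cover counting error only. A gene is called past 2-fold where its log2 ratio of KO over WT CPM is at least 1 in size, its interval lies on 1 side of 0 and it has at least 10 UMIs over both libraries. Levels are not compared between genes, since UMIs count transcript ends whose capture differs from gene to gene.

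The kept cells held a median of 13321 UMIs in WT and 12391 in KO, and 20 barcodes occurred in both libraries. Pdgfrb, the targeted gene, was at 43.1 CPM (WT) and 7.09 CPM (KO), with a UMI in 33.8% and 9.81% of cells. Where the null allele is cut is not given in the sources used here, so the KO UMIs may come from a part that remains. Their source was not tested. The authors took KO cells with detected PDGFRβ out of their data. Here the 801 KO cells with a Pdgfrb UMI were kept, and their removal was run only as an alternative. Xist was at 792.8 CPM (WT) and 0.415 CPM (KO), whereas 4 Y-linked genes summed to 0.0266 and 163 CPM. The sex of the embryos, the genotype and the library therefore cannot be told apart in any comparison below.

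Cells were put into classes by marker lists that hold none of the 9 genes. The coelomic epithelium-like class (Upk1b, Lrrn4, Krt19, Bnc1, Gpm6a, Msln, Muc16) held 118 WT and 77 KO cells, and the gonadal ridge-like class (Gata4, Nr0b1, Cyp26b1, Amhr2, Inhbb, Gadd45g, Star, Cyp11a1) 62 and 47. The nephrogenic mesenchyme-like class (Eya1, Six2, Sall1, Gdnf, Itga8, Cited1) held 166 and 178 cells, and the nephric epithelium-like class (with Cdh16, Gata3, Ret, Wfdc2 and Pkhd1 among its markers) only 5 and 6. Among cells that reached the coelomic or the gonadal list, 18 in WT and 10 in KO reached both. No class was given to 52.3% of WT and 54.7% of KO cells. Coelomic epithelium-like cells were 1.43% (1.19 to 1.71%) of the WT and 0.943% (0.745 to 1.18%) of the KO cells, a log2 ratio of -0.60 (-1.03 to -0.17). Gonadal ridge-like cells made up 0.751% and 0.576%, with an interval of the log2 ratio that spans 0 (-0.96 to 0.19).

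The members fell into groups by the class where each was highest. In WT, Upk3b was highest in coelomic epithelium-like cells, Wt1, Lhx9, Emx2 and Nr5a1 were highest in gonadal ridge-like cells, and Pax2, Pax8 and Lhx1 were highest in the 5 nephric epithelium-like cells. For Pax8 this rested on 18 UMIs, 15 of them in 1 cell. Gonadal ridge-like cells came next for Pax8, at 14.8 CPM with 33 UMIs in 13 of 62 cells. Osr1 was broad, with its highest level among classes of over 10 cells in nephrogenic mesenchyme-like cells. Among classes with at least 50 cells in both libraries, which leaves out the gonadal and nephric classes, 6 of the 9 members (Wt1, Upk3b, Lhx9, Emx2, Nr5a1 and Pax2) were highest in the same class in WT and KO. For Nr5a1 this rested on 11 and 4 UMIs in coelomic epithelium-like cells. How many of all genes kept their highest class was not counted. With the left-out classes counted, Wt1 and Emx2 did not keep their class. In KO, Wt1 was highest in coelomic epithelium-like cells and Emx2 in nephric epithelium-like cells.

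**Figure D1:**
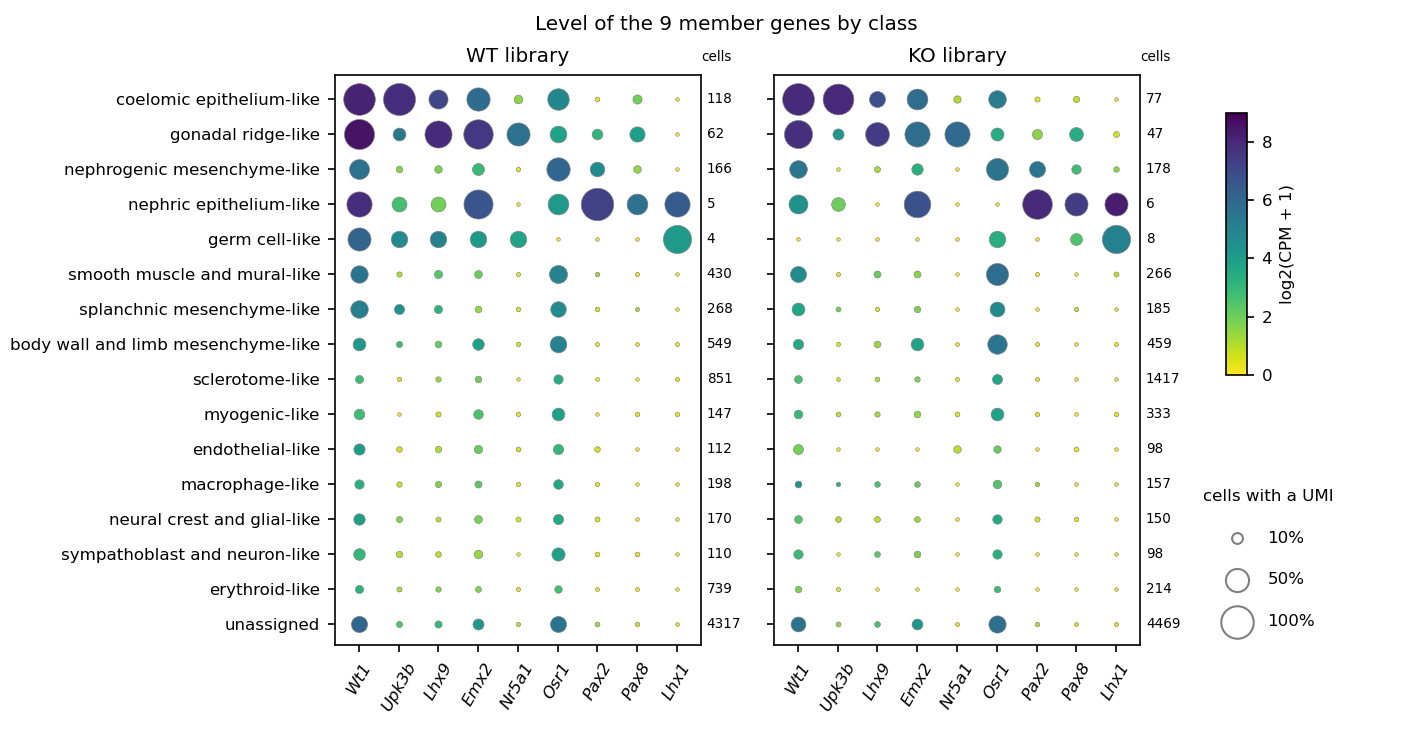
Level of the 9 genes in each class of the WT (left) and KO (right) library, as log2(CPM + 1) in color and the percent of cells with a UMI as the dot area, with the number of cells beside each class. Upk3b is highest in coelomic epithelium-like cells, with a UMI in 97.5% of them in WT and 89.6% in KO. Nr5a1 is highest in gonadal ridge-like cells, with a UMI in 31 of 62 and 28 of 47 cells. Both were also found in other cells, and in WT these classes held 115 of the 302 cells with Upk3b and 31 of the 77 with Nr5a1.

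Upk3b, a uroplakin family protein of the mesothelial surface, was the member most tied to the coelomic epithelium-like class. The class held 66.2% of all Upk3b UMIs in WT and 79.6% in KO, in 1.43% and 0.943% of the cells. Its level there was 224.5 (212 to 237) CPM in WT and 250.7 (234 to 268) CPM in KO, against 1.18 and 0.227 CPM in erythroid-like cells, a blood class that gives the background of free RNA. In single cells, Upk3b was present in 115 of the 118 WT cells and in 69 of the 77 KO cells. Erythroid-like cells, with medians of 16784 and 19546 UMIs against 39016 and 31435 in the coelomic class, had a Upk3b UMI in 1.22% and 0.467% of cells. Their shares were 5.14% and 2.80% for Wt1 and 4.19% and 2.80% for Osr1, and from 0 to 2.17% for the other members.

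The stretch of sequence before the start of Upk3b is shown because most UMIs of this gene lay in 1 class. That of Pax8 is shown because its level was highest in nephric epithelium-like cells in both libraries. Both come from RefSeq (GRCm38.p6), cover the 250 bases up to the start of the transcript, 5′ to 3′ on the strand of the gene, and overlap no annotated exon. Windows were found for 6 of the 9 members (Upk3b, Lhx9, Emx2, Pax2, Pax8 and Lhx1), 8 windows in all. The Upk3b window lies at chr5:136038246-136038495 on the + strand and the Pax8 window at chr2:24475600-24475849 on the - strand, with the letters CCAAT in capitals.
Upk3b: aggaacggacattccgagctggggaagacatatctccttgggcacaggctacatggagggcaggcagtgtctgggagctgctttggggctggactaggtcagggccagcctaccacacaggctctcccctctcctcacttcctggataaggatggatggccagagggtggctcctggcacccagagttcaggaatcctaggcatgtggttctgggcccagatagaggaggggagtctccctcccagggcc
Pax8: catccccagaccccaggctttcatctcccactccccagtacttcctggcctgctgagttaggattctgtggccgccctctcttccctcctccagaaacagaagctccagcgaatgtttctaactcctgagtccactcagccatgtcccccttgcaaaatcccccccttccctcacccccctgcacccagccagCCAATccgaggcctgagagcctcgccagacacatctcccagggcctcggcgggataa
The Pax8 match starts 57 bases before the start of the transcript. CCAAT, searched on both strands, was found in windows of 4 members (Lhx9, Emx2, Pax8 and Lhx1) and in 33.8% of all 32852 windows of this length. TAATTA, the core that homeodomain proteins bind, and AAGGTCA, a motif of nuclear receptors such as Nr5a1, were in none of the 8 member windows and in 4.84% and 4.08% of all windows. These matches describe letters in the windows, not bound sites.

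Wt1, a zinc-finger transcription factor of mesothelium, gonad and kidney, was found in nearly every cell of the coelomic epithelium-like class, 94.9% in WT and 96.1% in KO. It was not confined to it: the class held 20.1% and 16.9% of Wt1 UMIs, and cells without a class held 47.3% and 56.9%. Among the latter, cells with a Wt1 UMI had more coelomic marker UMIs than those without, 21.3 against 12.7 CPM in WT and 9.47 against 5.93 CPM in KO for the whole list, or log2 ratios of 0.74 and 0.68. Sympathoblast and neuron markers were as high or higher, at 1.04 and 0.69. Endothelial markers were higher in KO only, at 1.38, and at 0.19 (-0.11 to 0.49) in WT. Gonadal ridge markers were at 0.06 and -0.16. The cells with and without Wt1 had median depths of 13596 against 9281 and 14031 against 9838 UMIs. Lhx9, a LIM-homeodomain factor of the early gonad, was found in 33.9% (25.4 to 43.2%) of WT and 23.4% (14.5 to 34.4%) of KO coelomic cells. By cells with a UMI at full depth, this class was thus mixed for Lhx9 while nearly uniform for Upk3b and Wt1. Emx2, a homeodomain factor of the urogenital epithelium, lay between them with 50.8% and 40.3% of cells.

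Within the coelomic epithelium-like class, the UMIs of Nr5a1 lay almost entirely in the cells that also held Lhx9. Nr5a1 is the nuclear receptor that sets up steroidogenesis in the gonad. In WT, 10 of its 11 UMIs in the class fell in the 40 cells with an Lhx9 UMI, and in KO 4 of 4 fell in 18 such cells. Emx2 was at the same level in WT cells with and without Lhx9, 57.6 and 58.2 CPM, and at 98.3 against 27.9 CPM in KO. In KO the cells with Lhx9 were deeper, with a median of 59728 against 28288 UMIs, whereas in WT the medians were 42108 and 38276. The part of depth in these values was not tested.

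Gonadal ridge-like cells had the highest levels of Wt1, Lhx9, Emx2 and Nr5a1 of any class in WT. Wt1 was at 373 (348 to 399) CPM there and Lhx9 at 243 (223 to 264) CPM. Emx2 reached 183 (166 to 202) CPM with a UMI in 82.3% of cells. Nr5a1 was at 49.0 (40.3 to 59.2) CPM in WT and 59.3 (49.2 to 71.0) CPM in KO, and the class held 59.2% and 78.9% of its UMIs in 62 and 47 cells.

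The order of the coelomic and gonadal classes set the members apart from each other. On the log2 scale of gonadal over coelomic CPM, Nr5a1 was at 4.64 (3.74 to 5.68) in WT and 5.70 (4.31 to 7.60) in KO, and Upk3b at -2.47 (-2.80 to -2.16) and -3.74 (-4.25 to -3.27). Lhx9 was higher in the gonadal class in both libraries, by 0.84 and 0.59. Wt1 and Emx2 did not keep their place: Wt1 was at 0.42 (0.30 to 0.54) in WT and -0.15 (-0.32 to 0.02) in KO, and Emx2 at 1.66 (1.45 to 1.87) and 0.01 (-0.34 to 0.35). In KO these neighboring classes thus did not differ beyond counting error for Wt1 and Emx2.

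**Figure D2:**
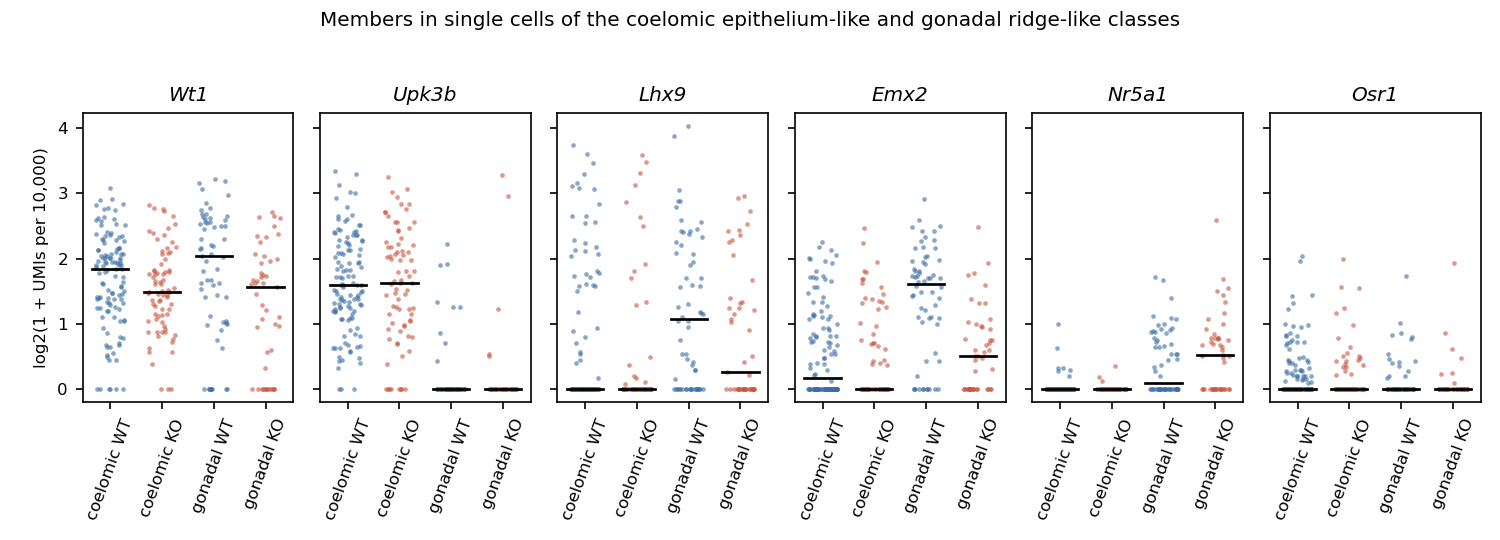
UMIs per 10,000 UMIs of a cell, as log2(1 + value), of 6 of the genes in every cell of the coelomic epithelium-like and gonadal ridge-like classes of WT (blue) and KO (red), with the median as a bar. Nearly all coelomic cells lie above 0 for Wt1 and Upk3b, Lhx9 splits the coelomic cells into those at 0 and those well above it, and Emx2 in gonadal cells sits lower in KO, with a UMI in 59.6% of cells against 82.3% in WT.

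Inside the gonadal ridge-like class, cells with an Nr5a1 UMI held more Wt1 than those without, 446 against 243 CPM in WT and 260 against 87.3 CPM in KO. Osr1 went the other way, at 8.45 against 21.2 CPM in WT and 1.99 against 31.0 CPM in KO, on 12 against 17 and 3 against 16 UMIs, with 11 of the 16 in 1 cell. Cells with Nr5a1 were deeper, with medians of 43622 against 24647 UMIs in WT and 44440 against 20777 UMIs in KO. The part of depth in which cells showed Nr5a1 was not tested.

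Osr1, a zinc-finger factor of the intermediate mesoderm, had a UMI in 20.3% (WT) and 22.7% (KO) of the cells, next to Wt1 in 20.6% and in 1305 of the 8165 KO cells. In nephrogenic mesenchyme-like cells it was at 64.6 (57.9 to 71.9) CPM in WT and 46.1 (40.5 to 52.2) CPM in KO. Smooth muscle and mural-like cells had 31.7 CPM in WT and 54.8 CPM in KO, which made them the highest class of Osr1 in KO among those of at least 50 cells. In WT the 7 gut epithelium-like cells, at 70.5 (45.6 to 104) CPM, did not differ from the nephrogenic class beyond counting error. Erythroid-like cells were at 5.58 and 5.89 CPM.

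Pax2, a paired-box factor that starts the nephric lineage, was split within the nephrogenic mesenchyme-like class. The class had 32 such cells among 166 in WT and 42 among 178 in KO, and these held 40.4% and 59.1% of all Pax2 UMIs. The cells with Pax2 held far more Wt1 than the others, 115 against 29.5 CPM in WT (130 and 120 UMIs) and 107 against 13.4 CPM in KO (182 and 48 UMIs). Osr1 was also higher with Pax2, 89.5 against 57.7 CPM and 66.1 against 36.6 CPM. Of the KO UMIs of the class, 29 of 31 of Pax8 and 10 of 10 of Lhx1 fell in the cells with Pax2. Median depth with and without Pax2 was 22890 and 22124 UMIs in WT and 31253 and 21254 in KO.

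The nephric epithelium-like class was too small for a comparison of genotypes, and its cells are given one by one. Pax2 had a UMI in 5 of 5 WT and 5 of 6 KO cells. In WT, 1 cell of 126453 UMIs held 70 UMIs of Wt1, 26 of Pax2, 15 of Pax8 and 1 of Lhx1, whereas another of 141658 UMIs held 26 of Lhx1, 19 of Emx2 and 18 of Pax2 with none of Wt1 or Pax8. In KO, a cell of 113710 UMIs held 66 of Lhx1, 44 of Pax2, 36 of Pax8 and 17 of Emx2 with 1 of Wt1, and one of 145292 UMIs held 33, 25, 18 and 11 of these with 6 of Wt1. These 4 cells are among the deepest of the libraries, whose deepest cells held 167298 and 186085 UMIs, and doublets were not removed. In WT, Lhx1 and Wt1 were high in different cells of this class.

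Lhx1, a LIM-homeodomain factor of the nephric duct, was also found in germ cell-like cells (Dppa3, Dppa5a, Pou5f1, Nanog, Ddx4, Dnd1). In WT 3 of the 4 cells of this class and in KO 6 of the 8 held it, with 4 and 14 UMIs, or 16.8 (4.58 to 43.0) and 32.7 (17.9 to 54.8) CPM. In 739 and 214 erythroid-like cells it had none, with upper limits of the interval at 0.271 and 0.836 CPM. The genes that most followed Lhx1 over single WT cells by the ratio of CPM in cells with and without it were Rhox9, Rhox6, Dppa3 and Dppa5a, with log2 ratios of 12.47, 11.20, 10.61 and 10.56, and in KO 8.80, 7.92, 8.89 and 8.93. Dppa3 and Dppa5a are markers of the germ cell list. The other WT germ cell-like cell held no Lhx1 but 15 UMIs of Wt1, 8 of Lhx9, 6 of Upk3b, 4 of Emx2 and 3 of Nr5a1.

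Cells with 1 member often held another. In WT, 73.8% (68.5 to 78.7%) of cells with Upk3b and 77.9% (67.0 to 86.6%) of cells with Nr5a1 also held Wt1, which was found in 1696 of all 8253 cells, and in KO these shares were 84.2% and 71.9% against 1305 of 8165 cells. Nr5a1 cells held Emx2 in 68.8% and 52.6% and Lhx9 in 57.1% and 42.1% of cases. Pax8 cells held Pax2 in 16.4% (8.49 to 27.5%) in WT and 58.1% (42.1 to 73.0%) in KO, but the KO cells were deeper, with medians of 27471 (WT) and 47658 (KO) UMIs. After thinning to 2000 UMIs the pair was seen in 1 of 11 and 1 of 10 cells, too few to compare the libraries. Of 72 ordered pairs, the interval lay above the share in all cells for 58 in WT and 59 in KO and below it for none. The same count for pairs of other genes was not made, so these counts have no background. Cells with a member are deeper than the rest (median of 24359 UMIs for Upk3b and 36502 for Nr5a1 in WT, against 13321 for all cells). With each cell thinned to 2000 UMIs, Upk3b cells also held Wt1 in 34.4% (WT) and 27.5% (KO) of cases, against 6.20% and 4.41% of all cells. Not every pair held up after thinning. Upk3b cells held Osr1 in 2.08% (WT) and 7.84% (KO) of cases, against 4.69% and 6.36% of all cells. How many pairs stayed above the share in all cells after thinning was not counted.

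**Figure D3:**
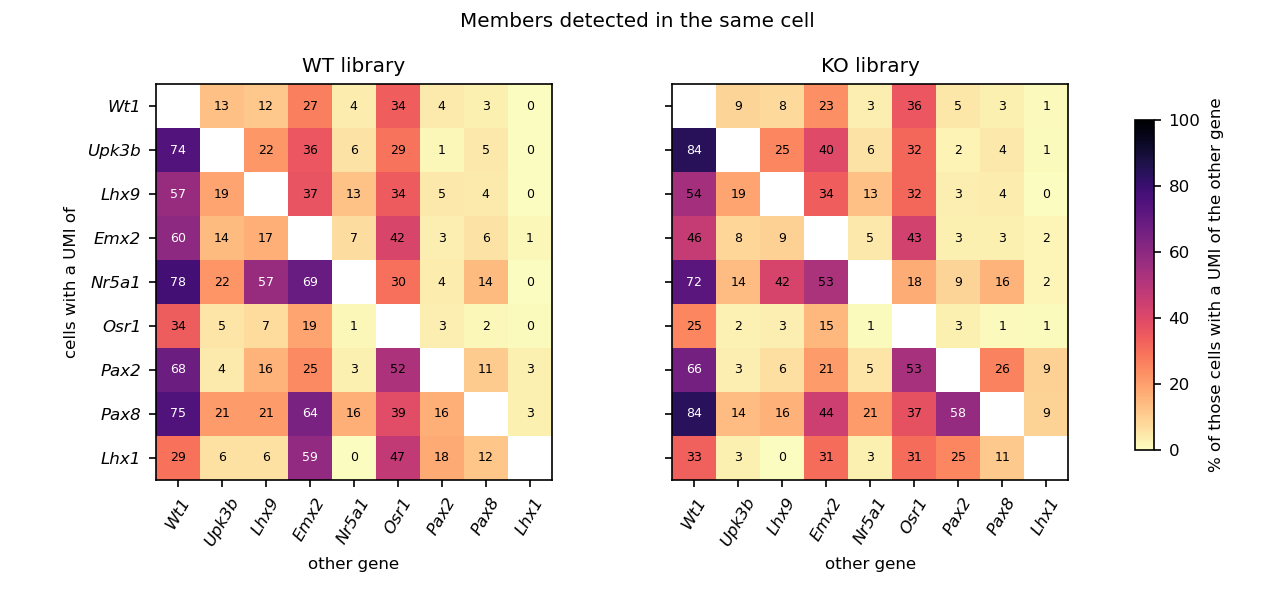
Percent of the cells with a UMI of the gene on the y axis that also held a UMI of the gene on the x axis, in WT (left) and KO (right), rounded to whole percent. The Wt1 column is dark for most genes, and the Pax8 to Pax2 field stands at 16% in WT and 58% in KO. After thinning this pair was seen in 1 of 11 and 1 of 10 cells, too few to compare the libraries.

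Across genes, those most like each member were found by the same ratio in WT cells. Upk3b was followed by Muc16, Upk1b, Lrrn4 and Tm4sf5, with log2 ratios of 7.36, 7.28, 6.77 and 6.67 in WT and 8.95, 8.19, 7.51 and 7.65 in KO, where the former 3 are markers of the coelomic list. Pax2 was followed by Espn, Cldn9, Cldn3 and Calb1, from 5.83 to 5.26 in WT and from 5.42 to 4.82 in KO. Nr5a1 was followed by Ereg and Cst8, at 6.99 and 6.53 in WT and 6.57 and 9.24 in KO. Emx2 was followed by Gm2044 and Amhr2, the receptor of anti-Müllerian hormone, at 7.35 and 5.75 in WT but 1.93 and 4.40 in KO. The genes that led for Osr1 (Elane, at 4.21 in WT and -0.53 in KO) and Pax8 (Camp, at 6.02 in WT with no UMI in the KO cells with Pax8) did not follow them in KO. Over 13 classes of log2(CPM + 1) levels, the closest pattern to Wt1 was that of its antisense gene Wt1os (Pearson r of 0.98 in WT and 0.96 in KO), and to Emx2 that of E330013P04Rik and Emx2os (0.99 and 0.98 in WT, 0.95 and 0.92 in KO). Emx2os overlaps Emx2 on the other strand, so their UMIs may not be separate. Classes share the library and its depth, and these values are a description.

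Over all cells, Wt1, Upk3b, Lhx9 and Emx2 were lower in KO, and Osr1, Pax2 and Lhx1 were higher. Nr5a1 and Pax8 did not differ beyond counting error. Under 11 alternatives the log2 ratio ranged from -0.69 to -0.41 for Wt1, from -1.13 to -0.21 for Upk3b and from -1.07 to -0.38 for Lhx9. The range was -0.40 to -0.02 for Emx2 and -0.36 to 0.09 for Nr5a1. Wt1 had 7741 UMIs in WT and 4974 in KO, or 51.5 and 35.0 CPM, a log2 ratio of -0.56 (-0.61 to -0.51). Upk3b was at 12.6 and 7.76 CPM, a log2 ratio of -0.70 (-0.81 to -0.59). Lhx9 stood at -0.64 (-0.74 to -0.53) and Emx2 at -0.27 (-0.36 to -0.18), each with an interval below 0, while Nr5a1, at 1.23 and 1.07 CPM, spanned 0 with -0.20 (-0.52 to 0.12). Osr1 was higher in KO, at 29.9 and 35.9 CPM with a log2 ratio of 0.26 (0.21 to 0.32), and Pax2 by 0.38 (0.16 to 0.60) at 2.11 and 2.75 CPM.

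Of the 9 members, 1 was past 2-fold over all cells, against 6.84% of 18850 genes, whose median log2 ratio was 0.06. This was Lhx1, with 47 UMIs in WT and 157 in KO, or 0.313 and 1.10 CPM, a log2 ratio of 1.82 (1.34 to 2.32). Its UMIs lay in 17 and 36 cells, and 1 WT cell held 26 and 2 KO cells held 66 and 33 of them. Without the nephric epithelium-like class the ratio was 1.77 (0.97 to 2.65) on 17 and 55 UMIs, and with each cell thinned to 2000 UMIs it was 1.89 (-0.03 to 4.37), which is no longer called. Pax8, at 0.839 and 0.984 CPM, had 0.23 (-0.13 to 0.59), which became -0.27 without the nephric class and -0.63 as a mean of the CPM of single cells.

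Within the coelomic epithelium-like class, no member was past 2-fold, where 4.02% of 12799 genes were. Wt1 was at 278 CPM (WT) and 240 CPM (KO), a log2 ratio of -0.22 (-0.34 to -0.09), and Lhx9 at 136 and 113 CPM, a ratio of -0.26 (-0.44 to -0.08). The value of Lhx9 depended on the cells and the scaling, from -5.05 under a mitochondrial limit of 5%, with 23 and 12 cells in the class, to 0.06 after thinning. Upk3b went the other way with 0.16 (0.03 to 0.28), which was 0.03 as a mean of the CPM of single cells and -0.03 under the 5% limit. Emx2, at 58.0 and 55.1 CPM, did not differ beyond counting error (-0.07, -0.34 to 0.19). Osr1 was at 26.7 and 38.0 CPM, a ratio of 0.51 (0.16 to 0.86) that rested on 1 KO cell with 53 of the 133 UMIs and was -0.04 without the highest cell of each library. With KO class levels weighted to the class mix of WT, the ratio of Upk3b over all cells was -0.21 in place of -0.70.

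In gonadal ridge-like cells, Wt1, Lhx9, Emx2, Upk3b and Pax2 were lower in KO, while Nr5a1, Osr1 and Pax8 had intervals of the ratio that span 0. Past 2-fold were 3 of 9 members, of which Lhx1 had under 10 UMIs, against 8.47% of 11721 genes. Emx2 had 407 UMIs in WT and 112 in KO, or 183 and 55.4 CPM, a log2 ratio of -1.73 (-2.04 to -1.42), and -1.76 without the highest cell of each library. Its ratio was -1.28 (-2.96 to 0.21) under a mitochondrial limit of 5% and -1.25 (-2.72 to 0.02) after thinning, both no longer called. Wt1 stood at 373 and 216 CPM with -0.79 (-0.96 to -0.62) and Lhx9 at 243 and 171 CPM with -0.51 (-0.70 to -0.31). Under the 5% limit they were at -0.30 (-1.70 to 1.07) and -1.17 (-2.20 to -0.19), and after thinning at -1.43 and -1.46. Nr5a1 was at 0.27 (-0.11 to 0.66), and at 0.46 (0.04 to 0.88) without the highest cell of each library, which puts its interval above 0.

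The other members past 2-fold in this class rested on few cells. Upk3b had 90 UMIs in 9 WT cells and 38 in 5 KO cells, a log2 ratio of -1.11 (-1.69 to -0.55), which was 0.60 as a mean of the CPM of single cells and 2.92 under a mitochondrial limit of 5% with 9 and 6 cells in the class. Pax2 had 17 UMIs in 6 WT cells and 4 in 4 KO cells, a log2 ratio of -1.95 (-3.98 to -0.34). Pax8 was at 14.8 and 9.89 CPM, with an interval of the ratio from -1.47 to 0.26.

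**Figure D4:**
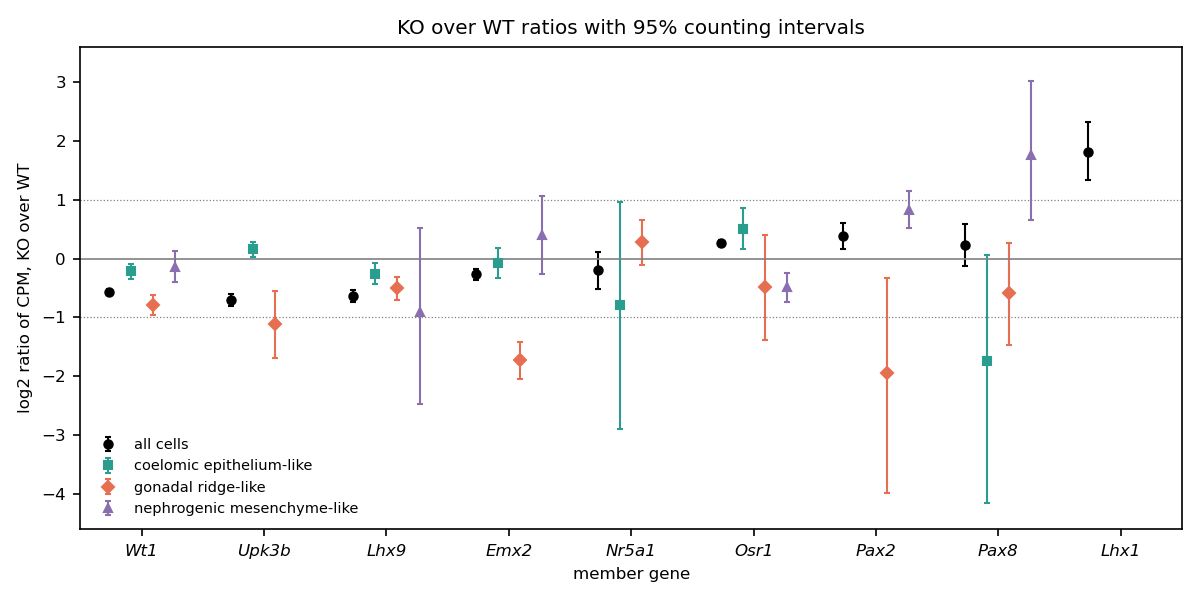
Log2 ratio of KO over WT CPM of each gene (x axis) over all cells and in 3 classes, with exact 95% counting intervals as bars and dotted lines at 2-fold. Values under 10 UMIs over both libraries or with 0 UMIs in 1 library are not drawn. Emx2 in gonadal ridge-like cells lies at -1.73, below its value in coelomic epithelium-like cells at -0.07, and Lhx1 over all cells lies at 1.82.

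The gonadal ridge-like cells of the libraries also carried genes of different sex types. A list of 13 genes known from the early testis or ovary was read there after the leading genes of the class had been seen. Amh, anti-Müllerian hormone of the testis, had 0 UMIs in WT and 176 in KO, and Dhh, a testis ligand, 0 and 105. Set against a floor of 3 UMIs in WT, their KO levels were 64.5-fold and 38.5-fold higher. The lower limits of the intervals of their log2 ratios were 5.70 and 4.94. Sox9, a transcription factor of testis supporting cells, was at 46.8 and 244 CPM. Fst and Wnt4, which act in the ovary, were at 301 and 10.9 CPM and at 472 and 77.6 CPM, and Foxl2, a granulosa cell factor, had 33 and 4 UMIs. Of 7 testis-type genes, 6 were higher in KO with an interval above 0, and Sry had 0 and 1 UMIs. All 6 ovary-type genes were lower in KO with an interval below 0. Foxl2 was among the leading genes of the class in WT, and Cst9 and Ptgds were in KO. These counts are therefore in part set by how the list was chosen. The share of all genes with such an interval was not counted. The ratios of Emx2, Wt1 and Lhx9 in this class come from the same cells as these genes, and the parts of sex and of genotype in them cannot be told apart.

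**Figure D5:**
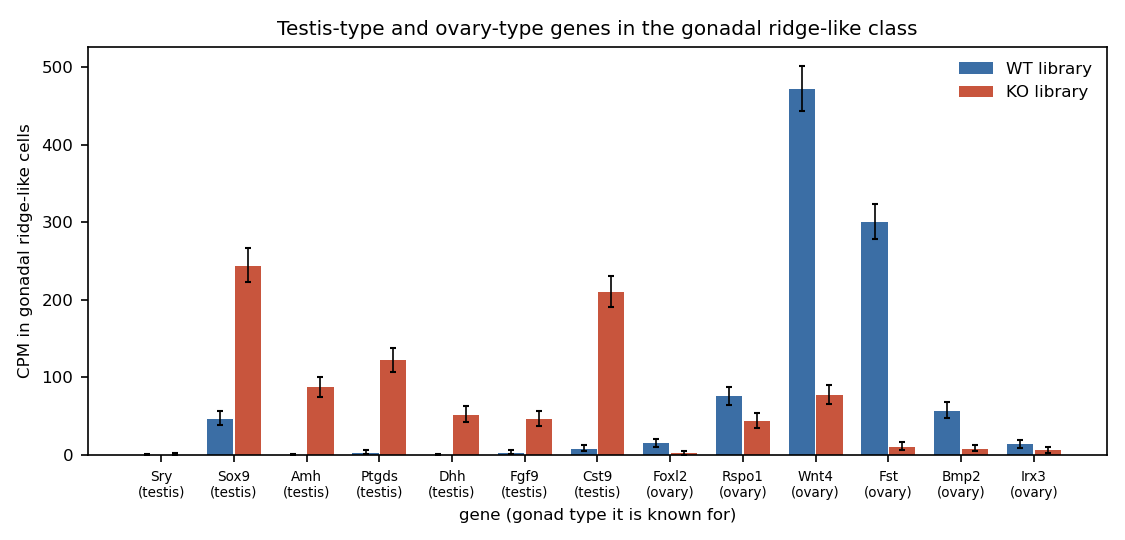
CPM of 13 genes of the testis or ovary in the gonadal ridge-like cells of WT (blue, 62 cells) and KO (red, 47 cells), with exact 95% Poisson intervals. Apart from Sry, testis-type genes such as Sox9 (46.8 against 244 CPM) are higher in KO, and ovary-type genes such as Wnt4 (472 against 77.6 CPM) are lower. The genes were chosen after the leading genes of the class had been seen.

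Nephrogenic mesenchyme-like cells had more Pax2 and Pax8 and less Osr1 in KO. Pax2 had 128 UMIs in WT and 231 in KO, or 24.6 and 43.8 CPM, a log2 ratio of 0.83 (0.51 to 1.15). The ratio was 0.61 without the highest cell of each library (65 UMIs in KO) and 0.22 as a mean of the CPM of single cells. After thinning it was -0.52 (-2.32 to 1.20). Osr1 stood at 64.6 and 46.1 CPM, a ratio of -0.49 (-0.73 to -0.25), and Wt1 at 48.1 and 43.6 CPM did not differ beyond counting error. Among the 9 members, of which Nr5a1 had under 10 UMIs, 3 were past 2-fold, against 3.16% of 12637 genes. These were Pax8, with 9 UMIs in WT and 31 in KO and a ratio of 1.76 (0.66 to 3.02), Lhx1, with 0 and 10 UMIs, and Upk3b, with 11 and 0. As a mean of the CPM of single cells, Pax8 was at 0.48, which is under 2-fold and no longer called. The class held a like share of cells in both libraries, 2.01% and 2.18%.

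Members of the coelomic group were also read in 3 other mesenchymal classes, where Wt1 and Upk3b were lower in KO. In sclerotome-like cells, Wt1 (-0.27, -0.70 to 0.17) and Upk3b (-0.20, -2.07 to 1.80) spanned 0. In splanchnic mesenchyme-like cells, Wt1 had 236 UMIs in WT and 62 in KO (log2 ratio -1.45, -1.88 to -1.04), Upk3b 144 and 14 (-2.89, -3.79 to -2.09) and Lhx9 58 and 2 (-4.38, -7.46 to -2.46). Thus 3 of 9 members were past 2-fold against 11.5% of 12988 genes, with Lhx1, Nr5a1 and Pax2 under 10 UMIs. The class was led by Krt13, Nkx2-5 and Tlx1 in WT and by Nkx2-3, Gpr50 and Gm20467 in KO, with Nkx2-3 alone shared by the 10 leading genes of each, and whether it held the same cells in both libraries was not tested. In body wall and limb mesenchyme-like cells, Upk3b had 79 and 4 UMIs (-4.02, -5.93 to -2.61) and Lhx9 47 and 18 (3.53 and 1.64 CPM), which are 2 members past 2-fold against 5.2% of 13727 genes. Lhx1, Nr5a1, Pax2 and Pax8 had under 10 UMIs there. In smooth muscle and mural-like cells, Upk3b had 11 and 1 UMIs and Pax2 16 and 1, 10 of the 16 in 1 cell, against 4.59% of 13447 genes past 2-fold.

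The Upk3b and Lhx9 values came from a small part of the cells, whereas Wt1 was found in 76 of 268 splanchnic and 120 of 430 smooth muscle cells in WT. Upk3b was found in 23 of 268 splanchnic WT cells, with 43 of its 144 UMIs in 1 of them, and in 14 of 549 body wall cells. Of the cells in these 3 classes, at most 1 per class and library also reached the coelomic or gonadal list, and these held 3 of the 144 splanchnic and 19 of the 79 body wall UMIs of Upk3b in WT. In blood and vessel classes, the levels of these genes did not all move the same way. Wt1 stood at 8.52 and 2.49 CPM in erythroid-like and 15.7 and 2.75 CPM in endothelial-like cells, but 9.12 and 20.6 CPM in macrophage-like cells. In WT, 1 erythroid-like cell held 39 of the 116 Wt1 UMIs of its class and 1 endothelial-like cell 33 of 68. In KO, 1 macrophage-like cell held 37 of 60. Upk3b had 16 and 1 UMIs in erythroid-like and 3 and 26 in macrophage-like cells, the 26 all in 1 cell. Barcodes of at most 100 UMIs, taken as free RNA, gave Wt1 levels of 34.2 (WT) and 39.4 (KO) CPM. Their Upk3b levels went the other way, 10.9 (WT) and 5.09 (KO) CPM. The part of free RNA in the mesenchymal values was not tested. Osr1 was higher in KO in smooth muscle and mural-like cells (0.79, 0.57 to 1.01) and in body wall and limb mesenchyme-like cells (0.51, 0.31 to 0.70), and at 24.7 and 25.9 CPM in splanchnic cells.

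Cells without a class held a large part of Wt1, Osr1 and Emx2. Wt1 was at 63.8 (61.7 to 65.9) CPM there in WT and 47.1 (45.4 to 48.9) CPM in KO, and Osr1 at 45.0 and 54.0 CPM. Emx2 did not differ beyond counting error, at 17.2 and 17.5 CPM, and these cells held 45.8% and 61.8% of its UMIs. By markers, unassigned cells with Wt1 had fewer sclerotome marker UMIs than those without it, 154 against 312 CPM in WT and 199 against 374 CPM in KO. Cells with Osr1 had more of the splanchnic list, 160 against 116 CPM and 65.3 against 44.9 CPM.

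The deleted receptor was read beside the members in WT. Cells with a Wt1 UMI had 61.1 CPM of Pdgfrb against 34.7 CPM in the others, a log2 ratio of 0.82 (0.74 to 0.89), and cells with Osr1 55.8 against 37.2 CPM, a ratio of 0.59 (0.52 to 0.66). Cells with Emx2 (0.33, 0.23 to 0.42) and with Lhx9 (0.22, 0.09 to 0.34) also had more. Cells with Upk3b had less, 32.9 against 43.9 CPM (-0.42, -0.58 to -0.26), and so had cells with Nr5a1, 27.4 against 43.5 CPM (-0.67), and with Lhx1 (-0.72, -1.40 to -0.12). For Pax2 and Pax8 the interval spanned 0. The coelomic epithelium-like and gonadal ridge-like classes were at 26.7 and 14.4 CPM of Pdgfrb, below smooth muscle and mural-like cells at 131 CPM. Stromal cells were also split by Pdgfrb and Cspg4 (NG2). Stromal WT cells with a UMI of both (DP) had 67.4 (63.1 to 71.8) CPM of Wt1, those with Pdgfrb alone (PDGFRb-S) 53.8, those with neither (DN) 32.2 and those with Cspg4 alone (NG2-S) 20.9 CPM. Median depth was 24153 UMIs in DP, 16339 in PDGFRb-S, 14065 in NG2-S and 9205 in DN. Thinned to 2000 UMIs per cell, Wt1 was found in 8.72%, 8.58%, 5.38% and 2.02% of DP, PDGFRb-S, DN and NG2-S cells.

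Other genes of the same tissues did not all follow the members. These lists share genes with the marker lists of the classes. Within a class, the levels of its own markers are in part set by the gate. Of 12 coelomic and mesothelial genes, 11 had at least 10 UMIs over all cells, with Aldh1a1, which makes retinoic acid, higher in KO past 2-fold and the keratins Krt8 and Krt19 lower, and a median log2 ratio of -0.49. Within the coelomic class the median of these genes was 0.12. Muc16, a mucin of the mesothelial surface, was the only one past 2-fold, with 15.9 and 39.4 CPM. All markers of this class, Muc16 among them, belong to the list, so the median does not test whether such genes are stable. Of 16 gonadal and steroidogenic genes, Inhbb, a subunit of inhibin, was past 2-fold higher in KO over all cells, with 95 and 213 UMIs, and the median was -0.08. In the gonadal class Inhbb, itself a marker of that class, was higher and Cbx2, a Polycomb gene, lower, out of 15 with enough UMIs. Of 16 nephric duct and tubule genes, Fgf8 was higher and Cdh16 lower over all cells, with a median of -0.55. Of 15 nephrogenic mesenchyme genes none was past 2-fold over all cells, with a median of 0.39, and Fgf9 was past it in the nephrogenic class, with 9 and 27 UMIs. Wnt4, a signal of kidney tubules and the ovary, was past 2-fold higher in KO in the nephrogenic class (26.9 and 75.8 CPM) and lower in the coelomic (134 and 58.5 CPM) and gonadal classes (472 and 77.6 CPM).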

How the data were processed

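Single cells of E11 AGMs were measured with the 10x Chromium 3′ v3 chemistry. The authors aligned the reads and counted UMIs with Cell Ranger 3.1.0 against mm10 (GRCm38), and deposited raw UMI counts for every gene and barcode, not normalized. The library totals were 179743201 UMIs in WT and 174597654 in KO.

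Of 9207 WT and 9157 KO barcodes with at least 2000 UMIs, 954 and 992 with 10% or more mt- UMIs were removed. For each of 17 marker lists, log2(1 + UMIs per 10,000) of a marker was divided by its root mean square over both libraries and averaged. A cell took the class with the highest score among lists with at least 3 markers found and a score of at least 1. The score minimum was set after the scores were seen. No doublet caller was run, and an alternative removed 109 WT and 137 KO cells that reached lists of 2 or more tissues. The files held 0 columns of other samples.

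UMIs were summed per class and library and scaled to CPM, with exact Poisson, binomial and conditional intervals from scipy 1.17.1 (Python 3.11.15, numpy 2.4.6, pandas 2.3.3, matplotlib 3.10.9). The computation of the ratio intervals was checked on simulated Poisson counts, the model that these intervals assume. The simulation had no variation between cells, embryos or libraries, so it says nothing about error from these sources. Molecules amplified before counting and cells of the same embryo are not independent, so intervals understate the error. For mean CPM of single cells, class-mix weights and subtracted free RNA, calls used the summed-UMI interval moved to the new value. Such an interval does not measure the counting error of that value. Genes named are the 9 members, the genes of 4 lists, 13 sex-type genes chosen after the leading genes of the gonadal class were seen, and for each member the 4 genes with the largest ratio of CPM in WT cells with and without it, among genes of at least 50 UMIs. Class patterns used genes of at least 200 UMIs. The members and lists were chosen with earlier results of these data known. Promoter windows came from RefSeq, and gene positions from GENCODE M21. Alternatives changed the UMI and mitochondrial limits, the markers and score needed, the scaling, depth, free RNA, doublets, Pdgfrb cells, class mix and class size.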

Additional observations from a re-analysis of the deposited data

Results flagged for a closer look

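Upk3b, Osr1 and Pax2 differed between classes in the direction of the KO over WT ratio, and these differences between classes were not tested. They were flagged because their intervals lay above 0 in some class and below 0 in another. The highest and the lowest such class is given, so the values below are those used to choose them. The coelomic value of Upk3b ranged from -0.03 to 0.23 under the alternatives. Upk3b was at a log2 ratio of 0.16 (0.03 to 0.28) in coelomic epithelium-like cells and at -4.02 (-5.93 to -2.61) in body wall and limb mesenchyme-like cells, where it had 79 UMIs in WT and 4 in KO. Osr1 was at 0.79 (0.57 to 1.01) in smooth muscle and mural-like cells and at -0.49 (-0.73 to -0.25) in nephrogenic mesenchyme-like cells. Pax2 was at 0.83 (0.51 to 1.15) in nephrogenic mesenchyme-like cells and at -3.40 (-8.79 to -0.72) in smooth muscle and mural-like cells, on 16 and 1 UMIs. Without the highest cell of each library, the latter had 6 and 0 UMIs and an interval that spans 0, and after thinning the nephrogenic value was -0.52 (-2.32 to 1.20). In barcodes with over 100 and under 2000 UMIs, which no comparison above used, Osr1 had 437 UMIs in WT and 649 in KO, or 21.8 and 29.8 CPM, a log2 ratio of 0.45 (0.27 to 0.63). Only members higher in KO were flagged there. Wt1 (38.2 and 28.6 CPM), Upk3b (7.80 and 4.82 CPM) and Lhx9 (14.3 and 7.35 CPM) were lower, and Pax2 and Pax8 slightly higher. In barcodes of at most 100 UMIs, taken as free RNA, Osr1 was at 20.5 and 31.4 CPM. The part of free RNA in these values was not tested.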

How the results depend on the processing

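No paired analysis was possible because there was 1 library per genotype. Over all cells, 1 member was past 2-fold. The share of all genes past 2-fold was not counted under the alternatives below, nor was the share that kept its highest class. These counts of members thus have no background. With a mitochondrial limit of 5%, which keeps 3600 WT and 2915 KO cells, there were 3 (Upk3b, Lhx9, Lhx1), with the mean CPM of single cells 2 (Lhx9, Lhx1), and after thinning to 2000 UMIs 0. Within the class of at least 50 cells where each member was highest in WT, 0 were past 2-fold. This became 2 under the 5% limit (Upk3b and Emx2, both in body wall and limb mesenchyme-like cells), and 1 each with 4 markers or with KO cells holding Pdgfrb removed (Pax2), 2 markers or, chosen after seeing the data, classes of at least 40 cells (Emx2), mean CPM (Nr5a1), thinning (Osr1), and, also chosen after seeing the data, a score minimum of 1.5 (Pax8). Of the 6 members highest in the same class of both libraries, the 5% limit left 2 (Wt1, Emx2). The log2 share ratio stayed below 0 under the 10 alternatives for coelomic (-0.75 to -0.37) and gonadal cells (-0.70 to -0.28), with intervals for coelomic cells that span 0 under the 5% limit (-1.78 to 0.43) and 4 markers (-0.88 to 0.14), and ranged from -0.57 to 1.01 for nephric epithelium-like cells. Upk3b in gonadal ridge-like cells reversed to 2.92 under the 5% limit and to 0.60 with mean CPM. Of 288 values of single members, 273 kept their direction, 236 lay within the interval of the reported value and 50 outside it. The causes were not tested. Genotype rests on 1 library each, and few cells limit the gonadal and nephric values.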
